A study of Mus musculus with 24 samples.

Results

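Casz1 (castor zinc finger 1, ENSMUSG00000028977) encodes a zinc finger transcription factor, and its RNA was followed here through 24 libraries of primary mouse brain microvascular endothelial cells, the cells that line brain capillaries. It is 1 of 18091 genes with a value in the wild-type table and 1 of 18297 in the table of libraries labelled knockout. The gene was picked because its values were low where sphingosine-1-phosphate (S1P) was given on the basal side, so every comparison with that group is a description and carries no test. The cells had been cultured with puromycin for 48 h against other cell types, seeded on porous inserts, and treated 48 h later for 24 h from the apical (blood) or the basal (tissue) side. Wild-type cells (strain C57B/6J) were given vehicle, or 500 nM of the S1P4 receptor agonist CYM50260 on the apical or on the basal side, or 50 nM of S1P on the apical or on the basal side. The remaining group, labelled S1P4 KO/KO and described as a global knockout, received vehicle. Each of the 6 groups held 4 replicates, each from cells pooled from 12 mice, with 3 inserts pooled per library. The labels give neither sex nor age of the mice, nor the part of the S1P4 gene that was deleted. No source ties a library to a separate pool of mice, so the p-values below measure the spread between these libraries.

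Casz1 proteins bind DNA through repeated zinc fingers and are made in a long and a short form. The factor is best known from heart and vessel development, where in endothelial cells it acts upstream of the secreted vessel protein Egfl7 and of RhoA signalling, which sets actomyosin tension and cell contacts. In other tissues it has been described with the NuRD and Polycomb repressor complexes. S1P is a lipid carried in blood that signals through G protein-coupled receptors, and several of these also act on RhoA.

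On mm10 the gene spans chromosome 4 from 148804429 to 148954889 on the plus strand, 150461 bases of which 12224 are exonic in GENCODE M21. The transcripts Casz1-201 (16 exons, ending at 148945129) and Casz1-202 (21 exons, ending at 148954889) share their start at 148804429, and the short processed transcript Casz1-205 begins inside the gene at 148889381. The values are sums over the whole gene and do not separate these transcripts. Further annotated transcripts begin at 148804465 (Casz1-203), 148901149 (Casz1-206) and 148933114 (Casz1-204). The RefSeq table (GRCm38.p6) holds 2 windows for Casz1, each from 250 bases before to 50 after a start of its own annotation, which need not be the GENCODE base. They are shown here because they lie 84955 bases apart and differ in composition. Capitals mark matches to any of 6 motifs searched on both strands. The windows are chr4:148804142-148804441 for the first start and chr4:148889097-148889396 for the internal start, both on the plus strand.
Casz1 first start: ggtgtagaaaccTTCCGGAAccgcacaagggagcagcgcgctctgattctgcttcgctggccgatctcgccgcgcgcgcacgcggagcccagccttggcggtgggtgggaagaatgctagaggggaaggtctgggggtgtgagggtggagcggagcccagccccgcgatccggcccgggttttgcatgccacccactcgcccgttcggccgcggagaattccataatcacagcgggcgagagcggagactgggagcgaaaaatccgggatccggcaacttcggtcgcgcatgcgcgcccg
Casz1 internal start: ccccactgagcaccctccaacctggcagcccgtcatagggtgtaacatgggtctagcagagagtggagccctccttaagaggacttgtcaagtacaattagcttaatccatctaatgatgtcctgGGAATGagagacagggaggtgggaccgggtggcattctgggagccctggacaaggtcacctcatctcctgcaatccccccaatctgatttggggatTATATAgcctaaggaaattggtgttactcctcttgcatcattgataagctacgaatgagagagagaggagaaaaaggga
The first window is rich in CpG, with 36 CpG pairs and 67.0% G and C, and 93.8% of 32851 RefSeq windows of the same length hold fewer CpG pairs. The internal window holds 3 CpG pairs and 50.3% G and C, and 23.3% of windows hold fewer. In the first window the capitals are 2 overlapping matches, on opposite strands, of CCGGAA, the core bound by ETS factors, a motif found in 14.9% of all windows. In the internal window the first run of capitals is GGAATG, a sequence bound by TEAD factors and found in 14.7% of windows. The other run is TATATA, a core promoter element found in 5.7% of windows. Neither window holds GGGCGG, the box of SP and KLF factors (35.7% of windows). The AP-1 sequence TGACTCA, found in 5.2% of windows, is absent from both. So is CAGCTG, an E-box found in 16.3% of windows. These matches describe the sequence, and binding there was not measured.

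The values are normalized counts per gene as the authors deposited them, in whole numbers, and the way of normalization is not given. A percentage or sum of these values therefore need not be one of reads. Wild-type libraries had totals of 4.49 to 4.72 M and listed 1009 to 1952 genes at 0, and libraries labelled knockout had totals of 17.36 to 17.83 M and listed 811 to 1662 genes at 0. The 20 listed endothelial markers were all present and summed to 32919 to 39887 normalized counts in the wild-type libraries, led in vehicle by Vwf (5348) and Flt1 (3920), while 10 pericyte markers summed to 276 to 2856. In 4 libraries the level of Xist, the RNA of the inactive X chromosome, did not go with the other libraries of the same number, namely apical agonist replicate 2 (1382 normalized counts), apical S1P replicates 3 (525) and 4 (1417), and basal S1P replicate 2 (552). Apical agonist replicate 2, apical S1P replicate 3 and basal S1P replicate 2 also had the lowest Casz1 of their groups. Casz1 comparisons are given below with and without the 4. S1pr4, the gene named in the knockout label, had 250, 261, 349 and 260 normalized counts in replicates 1 to 4 labelled knockout, so the label could not be read from its RNA level.

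Casz1 RNA was detected in every library and was lowest where S1P was given on the basal side. In vehicle, replicates 1 to 4 held 135, 119, 97 and 149 normalized counts, a mean of 125 ± 22.3 (SD, n = 4). With basal S1P they held 49, 38, 74 and 58, a mean of 54.8 ± 15.2 (SD, n = 4). With apical S1P they held 116, 99, 74 and 114, a mean of 101 ± 19.4 (SD, n = 4). No basal S1P library reached the lowest vehicle library, whereas basal S1P replicate 3 equalled the lowest apical S1P library at 74. With the agonist on the apical side Casz1 had 124, 90, 106 and 146 normalized counts, a mean of 116.5 ± 24.1 (SD, n = 4). On the basal side the agonist gave 93, 96, 106 and 141, a mean of 109 ± 22.0 (SD, n = 4). Both agonist groups overlapped the vehicle group and each other. In order of mean level, vehicle came first, then apical agonist, basal agonist, apical S1P and basal S1P. The first 4 groups in this order overlapped their neighbours, and the distance of each to the next was smaller than the SD within a group. The last step, from apical to basal S1P, was larger than either group's SD.

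**Figure D1:**
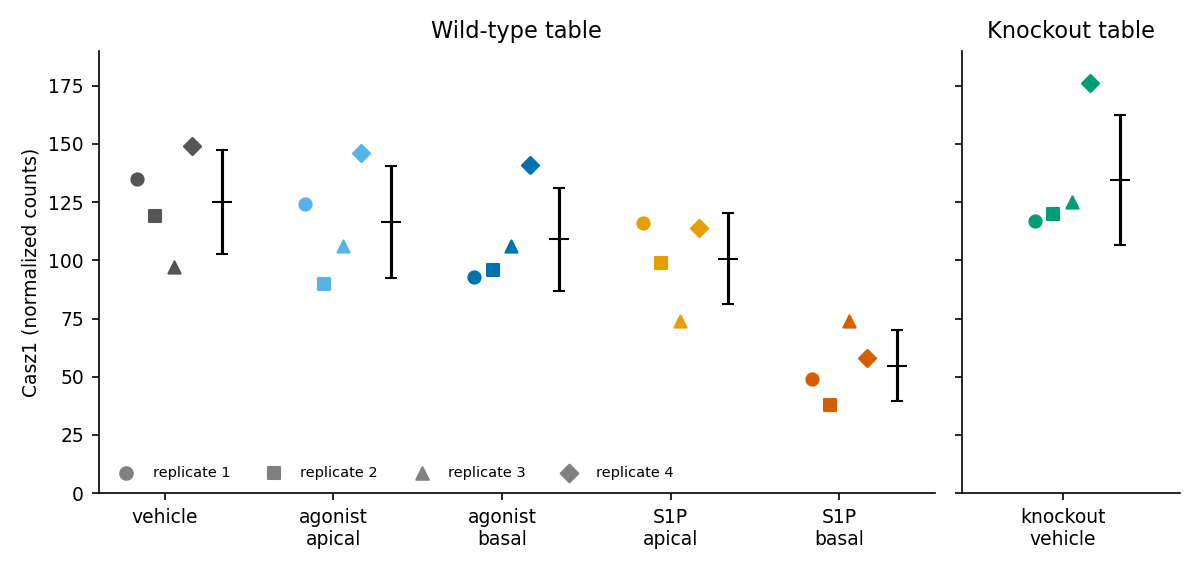
Normalized counts of Casz1 in each library (points, shaped by replicate) with the mean and SD of each group of 4, for the 5 wild-type groups and, from a separately normalized table, the group labelled knockout. Basal S1P libraries lie between 38 and 74, and vehicle libraries between 97 and 149.

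Basal S1P gave 43.8% of the vehicle mean, a log2 difference of -1.20 ± 0.21 (SE) on the log2(value + 1) scale. As background, 132 of 12249 tested genes (1.08%) had every basal S1P library below every vehicle library, and 3 genes (0.0245%) were called lower by limma at an adjusted p under 0.05. Since Casz1 was picked by this contrast, nothing is read from its place among them. Against apical S1P the log2 difference was -0.89 ± 0.21 (SE), with 3 of 4 basal libraries below all apical ones, where 79 genes (0.645%) were separated in that direction and 3 (0.0245%) called lower. Against basal agonist it was -1.0 ± 0.21 (SE), with 4 of 4 below, where 106 genes (0.865%) were separated in that direction. Against the 12 libraries of the 3 other treatments together it was -0.99 ± 0.17 (SE), with 3 of 4 basal S1P libraries below all 12, where 18 genes (0.147%) were separated in that direction and 6 (0.049%) called lower. These comparisons share the 4 basal S1P libraries, and the doses of S1P (50 nM) and agonist (500 nM) differ. Without the 4 libraries set apart by Xist, the differences were -1.04 against vehicle, -0.84 against apical S1P, -0.84 against basal agonist and -0.91 against the 3 other treatments.

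The comparisons without basal S1P gave no difference of Casz1 that passed the test. Apical agonist against vehicle gave a log2 difference of -0.11 ± 0.21 (SE), with a 95% interval of -0.54 to 0.33 (limma adjusted p = 0.9999). Basal agonist against vehicle gave -0.20 ± 0.21 (SE), with an interval of -0.64 to 0.24 (limma adjusted p = 0.9998). Apical S1P against vehicle gave -0.31 ± 0.21 (SE), with an interval of -0.75 to 0.13 (limma adjusted p = 0.9996). The 3 intervals include 0 and reach down to -0.54, -0.64 and -0.75, so differences of those sizes are within what this fit of 4 libraries per group allows. The fit left out the replicate number, with which Casz1 differed. With the number as a block the differences were the same, the SE was 0.17 and none passed, so the intervals given here are the wider ones. Basal against apical agonist, the same compound at the same dose from opposite sides, gave -0.09 ± 0.21 (SE), with an interval of -0.53 to 0.35 (limma adjusted p = 0.9999). In each of these 4 comparisons limma called 0 of 12249 genes (0%), and 134 (1.09%), 38 (0.31%), 122 (0.996%) and 61 genes (0.498%) lay under 0.05 before adjustment. The first 3 comparisons share the vehicle libraries. These were also the reference of the contrast by which Casz1 was picked, so the first 3 are not independent of that choice. Without the libraries set apart by Xist, Casz1 differed by 0.0095 between apical agonist and vehicle by -0.20 between apical S1P and vehicle, by -0.20 between basal agonist and vehicle and by -0.21 between basal and apical agonist. None of these passed the test.

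**Figure D2:**
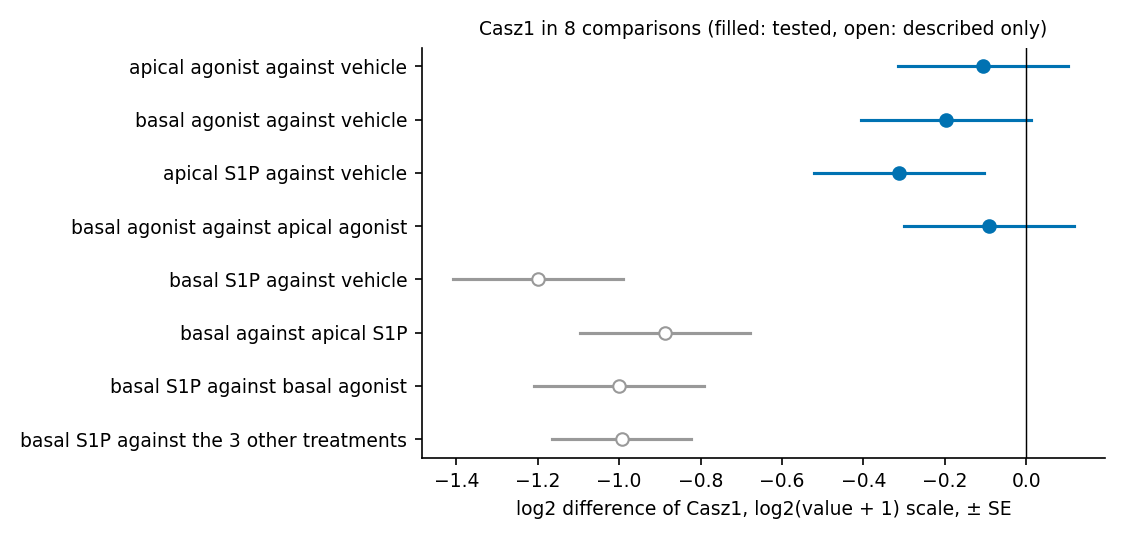
Log2 differences of Casz1 between groups on the log2(value + 1) scale, with bars of 1 SE from limma. Filled points are the 4 tested comparisons, from -0.31 to -0.09, and open points are the 4 comparisons with basal S1P, from -1.20 to -0.89, which are described only.

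Casz1 also differed with the replicate number, in a fit that held the treatment group as well. Over the 16 wild-type libraries without basal S1P, libraries numbered 1 to 4 averaged 117 ± 17.8, 101 ± 12.6, 95.8 ± 15.1 and 137.5 ± 16 normalized counts (SD, n = 4 each). The highest and lowest numbers differed by 0.52 on the log2 scale (limma moderated F = 7.11, adjusted p = 0.0108). Such differences were common, with 6513 of 12249 genes called (53.2%). Set beside the vehicle library of the same number, basal S1P libraries held 36.3%, 31.9%, 76.3% and 38.9% of Casz1 for numbers 1 to 4. Replicate 3 had the lowest vehicle value and the highest basal S1P value. The numbers do not pair basal S1P with vehicle, so these percentages are a description. Basal S1P replicate 2 was also set apart by Xist. Within groups, the residual SD of Casz1 was 0.31 on the log2 scale, larger than in 73% of the 1000 genes nearest in mean level, whose median was 0.23.

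Markers of other cell types varied with the replicate number as well. Summed pericyte markers ranged from 323 to 2856 in vehicle, 406 to 2540 with apical agonist, 276 to 2191 with basal agonist, 949 to 2849 with apical S1P and 318 to 2320 with basal S1P. Of 11 listed, 10 were in the table, none at 0 in all libraries, and Cspg4 (429) and Notch3 (406) led in vehicle. Replicate 4 had the fewest pericyte counts in every group, and the most Casz1 in vehicle and both agonist groups (149, 146 and 141) but not with S1P. With apical S1P the most Casz1 (116) was in replicate 1, which had the most pericyte counts (2849), and with basal S1P it was in replicate 3 (74). By number, pericyte sums in vehicle were 2856, 2259, 1272 and 323, with basal S1P 2320, 1601, 1069 and 318, and with basal agonist 2180, 2191, 1088 and 276. Each sum was below that of the vehicle library of its number in both groups. Casz1 was at 43.8% of the vehicle mean with basal S1P and at 87.2% with basal agonist. The numbers do not pair basal S1P with vehicle, so this is a description. Smooth muscle markers summed to 3196 to 4476 in vehicle and 3161 to 4411 with basal S1P, and fibroblast markers to 417 to 1138 and 398 to 930. Endothelial markers summed to 32919 to 36961 in vehicle and 34318 to 38308 with basal S1P. Astrocyte markers summed to 541 to 733 and 681 to 889, neuron markers to 282 to 426 and 199 to 505, and oligodendrocyte markers to 326 to 378 and 350 to 423. Microglia and macrophage markers stayed at 5 to 78 and 7 to 52, and choroid plexus and epithelial markers at 21 to 84 and 16 to 117. Between basal and apical S1P, the comparison in which Casz1 differed by -0.89, all 8 tested pericyte markers had a lower mean (median log2 difference -0.78), as did 9 of 10 smooth muscle markers (-0.75) and 5 of 6 fibroblast markers (-0.50), against 49.7% of all genes. Against the 3 other treatments, 8 of 8 pericyte markers (-0.33), 8 of 10 smooth muscle markers (-0.30) and 6 of 6 fibroblast markers (-0.16) were lower. Against vehicle these numbers were 6 of 8 (-0.38), 6 of 10 (-0.05) and 5 of 6 (-0.26), and against basal agonist 5 of 8 (-0.13), 4 of 10 (0.11) and 4 of 6 (-0.13). Between apical S1P and vehicle, 1 of 8 pericyte (0.51), 1 of 10 smooth muscle (0.62) and 2 of 6 fibroblast markers (0.25) had a lower mean. No marker of any list was called in these 5 comparisons. All of them except basal S1P against vehicle and against basal agonist include apical S1P replicates 3 and 4, which were set apart by Xist. Their pericyte sums were 1800 and 949, against 1272 and 323 in vehicle libraries of these numbers. Basal S1P replicate 2, also set apart, had 1601 against 2259, and apical agonist replicate 2 had 2262. The marker comparisons were not repeated without these libraries. In RNA from whole cultures, fewer cells of a type that expresses Casz1 and less Casz1 RNA per cell cannot be told apart, and the part of other cell types in the Casz1 values was not tested.

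**Figure D3:**
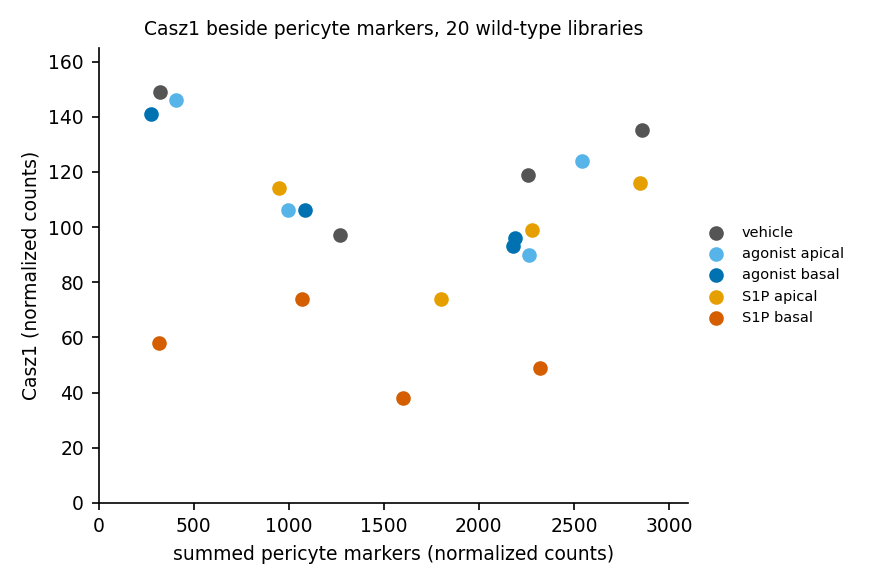
Casz1 normalized counts (vertical) against summed pericyte markers (horizontal) in the 20 wild-type libraries, coloured by group, with replicates not marked. Basal S1P libraries lie at 38 to 74 over pericyte sums of 318 to 2320, and the replicate 4 libraries of vehicle and both agonist groups lie at the upper left.

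Casz1 was one of the scarcer among 39 transcription factors compared, a list that does not cover all factors in these cells. Per kb of exon its level in vehicle was 10.2 ± 1.83 normalized counts (SD, n = 4), at percentile 24.6 of the 13842 protein-coding genes with reads. It stood at place 38 among 39 factors compared, which are known from endothelial cells. Epas1 (hypoxia-inducible factor 2 alpha, 557.5 per kb), Sox18 (486 per kb), a factor of vessel and lymphatic identity, and Bcl6b (429 per kb) stood at the top. Hey2, a Notch target, and Foxc2, a forkhead factor of arteries and lymphatics, were close to Casz1 at 11.2 ± 2.56 and 11 ± 3.40 per kb (SD, n = 4), within the spread of its libraries. Only Tbx20 was lower in level per kb, at 0.188. Lengths are unions of annotated exons, so a gene that uses a short transcript is understated.

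**Figure D4:**
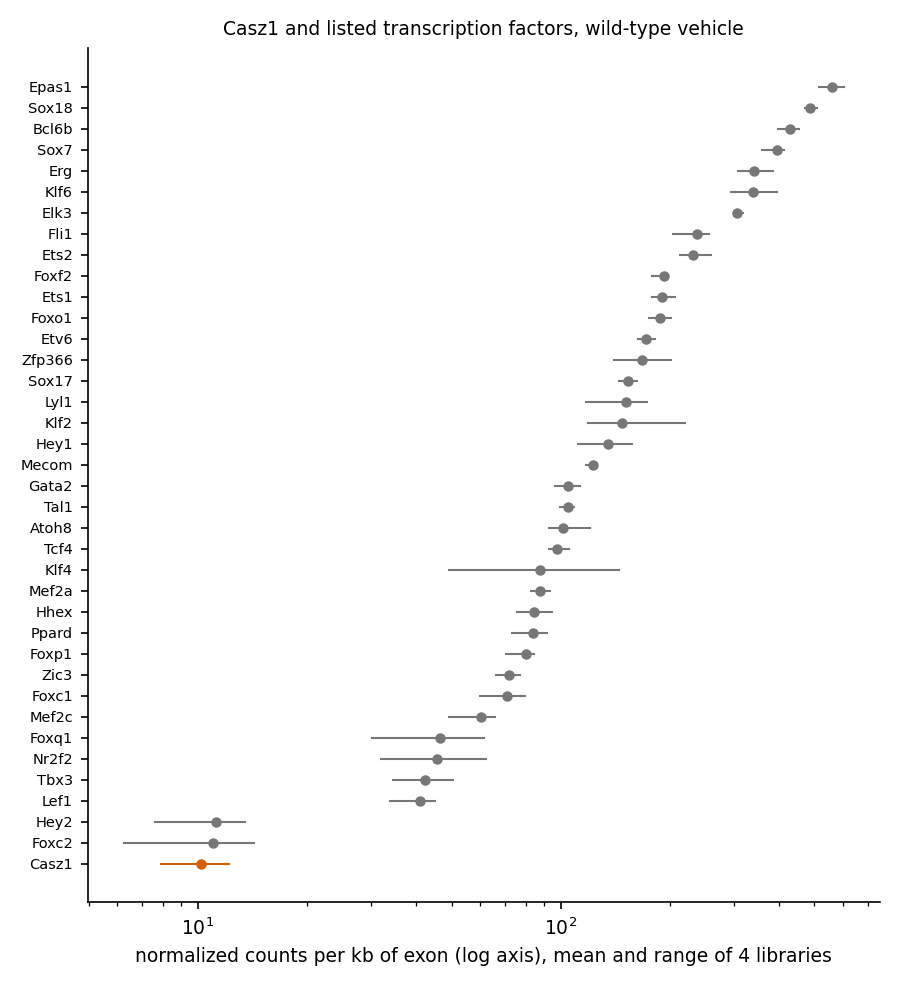
Level per kb of exon (log axis) of Casz1 and 37 other listed transcription factors in the 4 wild-type vehicle libraries, as mean and range, with Tbx20 left out because a library had 0 counts. Casz1 lies at the bottom, at 10.2 per kb.

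Egfl7 and RhoA signalling, placed downstream of Casz1 in endothelial cells, was described from a list of 22 tested genes chosen by known role. Whether Casz1 controls the RNA of the listed genes was not tested. Between basal S1P and vehicle, 12 of these had a higher and 10 a lower mean, with a median log2 difference of 0.0064, where all 12249 genes had 50.0% lower means and a median of 0.0002. None was called. Egfl7 had 835, 916, 794 and 788 normalized counts in vehicle and 827, 892, 845 and 772 with basal S1P, overlapping ranges with a log2 difference of 0.00 ± 0.08 (SE, limma adjusted p = 0.996). Rhoa, the small GTPase itself, averaged 622 ± 42.0 in vehicle and 685 ± 56.4 with basal S1P (SD, n = 4), a log2 difference of 0.14 ± 0.09 (SE, limma adjusted p = 0.756). The 3 members with the smallest p were the actin-severing protein gene Cfl1 (log2 difference 0.20), the myosin heavy chain gene Myh9 (0.13) and the GTPase gene Rhoc (0.21), each at a limma adjusted p of 0.756.

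Of 26 tested genes of the NuRD and Polycomb complexes, 15 had a higher and 11 a lower mean with basal S1P. Their median log2 difference was 0.03, and none was called. Cbx7, a Polycomb subunit that reads methylated histone H3, had 211, 205, 184 and 162 normalized counts in vehicle and 145, 152, 140 and 127 with basal S1P. The groups did not overlap, as in 132 of 12249 tested genes (1.08%). The log2 difference of -0.43 ± 0.11 (SE) did not pass (limma adjusted p = 0.649). With library weights it was -0.54 and passed (limma adjusted p = 0.0298), in a fit that called 13 of 12249 genes. When only the libraries of the compared groups were fitted, 0 list members were called. Rbbp7, a histone-binding subunit, and Ezh1, a histone methyltransferase, had log2 differences of 0.14 and -0.21.

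Among 37 tested transcription factors of the endothelial list, 25 had a lower mean with basal S1P (67.6%, against 50.0% of all genes) and the median log2 difference was -0.07. Atoh8, a basic helix-loop-helix factor, was the one called. It had 301, 236, 248 and 232 normalized counts in vehicle and 140, 128, 137 and 109 with basal S1P, without overlap, as in 132 of 12249 tested genes (1.08%). Atoh8 fell by 0.98 ± 0.13 on the log2 scale (SE, limma adjusted p = 0.00325), where 3 of 12249 genes (0.0245%) were called lower. It was also called against apical S1P, basal agonist and the 3 other treatments. The list was chosen with earlier results of these data known, so these calls are a description and no independent test. When only the 8 libraries of the 2 groups were fitted, 0 list members were called. Across libraries, Pearson's r of Casz1 with Atoh8 was -0.49 over the 16 without basal S1P and 0.67 over all 20.

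The 16 tested genes of S1P signalling and metabolism split evenly, 8 higher and 8 lower with basal S1P. Their median was -0.02 on the log2 scale and none was called. S1pr1 averaged 1443 normalized counts in vehicle and 1539 with basal S1P, S1pr2 74.8 and 74.5, S1pr3 41.8 and 25.8, and S1pr4 150 and 145. S1pr5 had no value. Members with the smallest p were the S1P phosphatase gene Sgpp2 (log2 difference -0.57), the lipid phosphatase gene Plpp1 (0.25) and the ceramide synthase gene Cers2 (0.15). Of 16 junction genes, 10 were higher and 6 lower in mean, with a median of 0.07 and none called. Jup, which encodes plakoglobin, a link between cadherins and the cytoskeleton, had a log2 difference of 0.31 ± 0.10 (SE, limma adjusted p = 0.756). The tight junction gene Marveld2 (-0.24) and the adhesion gene Esam (0.11) came next by p, each at a limma adjusted p of 0.756. No member of any of these lists was called in the 4 comparisons without basal S1P.

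Genes with a pattern like that of Casz1 were ranked by Pearson's r of log2(value + 1) over the 16 libraries without basal S1P. These libraries share replicate numbers and a normalization, so r is a description. The 8 highest were Arhgap26 (r = 0.91), a GTPase-activating protein for RhoA, Palmd (0.91), Gab1 (0.90), an adaptor of receptor tyrosine kinases, Csf2rb (0.89), a cytokine receptor chain, Gipc3 (0.89), Ets2 (0.89), an ETS factor, Pld2 (0.88), a phospholipase D, and Trim44 (0.87). Spearman's rho of these 8 ran from 0.80 to 0.88. Across 12248 genes the median r was -0.003. The 4 lowest were Cby1 (-0.89), an antagonist of beta-catenin, Gm2115 (-0.89), Tfpi2 (-0.88), a protease inhibitor, and Dmd (-0.87), which encodes dystrophin. All 8 of the highest, and 73 of the 100 highest, also differed by replicate number, and r computed after group and number means were taken out ran from 0.66 to 0.92 for the 8. Over the 13 libraries without the 3 set apart by Xist, r of the 8 ran from 0.77 to 0.89.

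None of these 8 was called between basal S1P and vehicle, and 7 of them had a lower mean. Gipc3 had a log2 difference of 0.01 between basal S1P and vehicle, Palmd -0.09, Ets2 -0.08, Pld2 -0.08, Trim44 -0.10, Arhgap26 -0.26 and Gab1 -0.26. Csf2rb had the lowest, -1.17 ± 0.70 (SE), with a wide spread between libraries. Over all 20 libraries the 5 highest were Rasgef1a (r = 0.89), an exchange factor for Ras-family GTPases, Nuak1 (0.86), an AMPK-related kinase, Irf1 (0.86), an interferon-regulated factor, Enpp2 (0.86), the lysophospholipase autotaxin, and Bach2 (0.84), and this ranking includes the group by which Casz1 was picked, so their values there are a description with no test. Rasgef1a had 148, 99, 92 and 124 normalized counts in vehicle and 72, 29, 64 and 57 with basal S1P, a log2 difference of -1.10 ± 0.30 (SE). Nuak1 had 477, 442, 448 and 460 in vehicle and 371, 300, 390 and 355 with basal S1P, a difference of -0.37 ± 0.07 (SE). Enpp2 averaged 989 and 610 normalized counts, with a log2 difference of -0.74 ± 0.24 (SE). Nuak1 reached r = 0.32 without the basal S1P libraries, whereas Rasgef1a reached 0.82 and Enpp2 0.84.

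**Figure D5:**
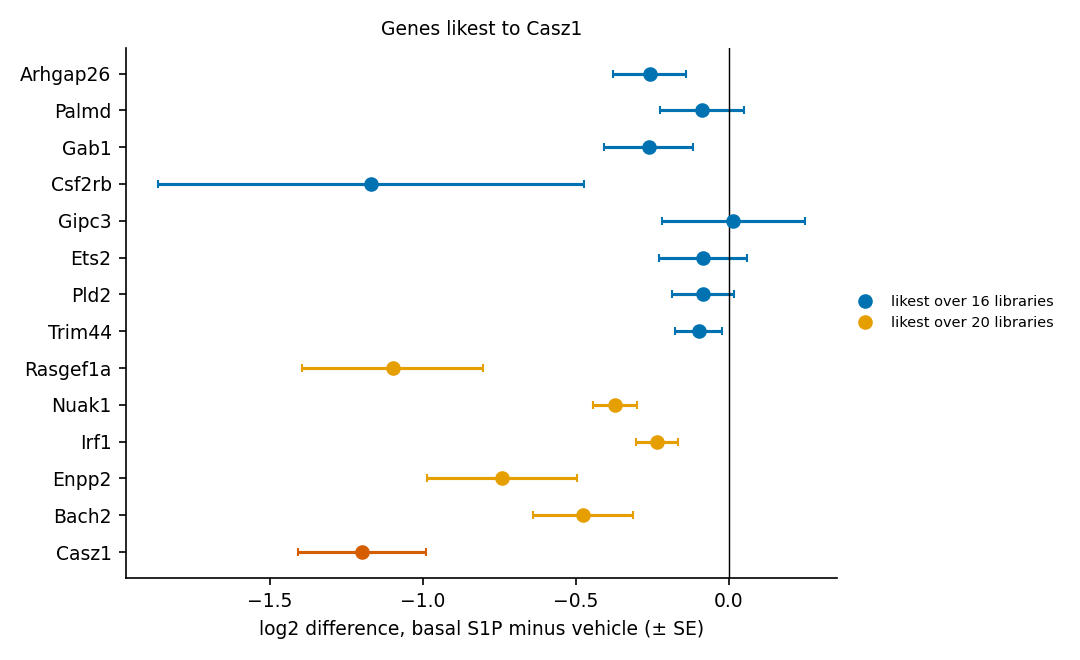
Log2 difference between basal S1P and vehicle, with bars of 1 SE, for the 8 genes likest to Casz1 over 16 libraries, the 5 likest over all 20, and Casz1. Gipc3 lies at 0.01 and Palmd at -0.09, while Rasgef1a lies at -1.10 and Casz1 at -1.20.

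None of the tested genes beside Casz1 on chromosome 4 was called between basal S1P and vehicle. Of 11 protein-coding genes within 300 kb, 9 were tested (Mtor, Exosc10, Srm and Tardbp before it, Pex14, Dffa, Cenps, Pgd and Kif1b after it), while Masp2 and Cort were too low. Between these groups 7 had a higher and 2 a lower mean, and their median log2 difference was 0.03. Srm, the spermidine synthase gene, was at one end (251 against 311 normalized counts in vehicle and basal S1P, log2 difference 0.31) and Kif1b, a kinesin gene, at the other (-0.14). Pex14, a peroxisome import gene that ends 5.6 kb from Casz1, had 0.11. The antisense gene Gm13205, which shares 122 exonic bases with Casz1, had 2 to 13 normalized counts over the 20 wild-type libraries. The kit keeps strand, but the strand setting of the counting is not given, so reads in those bases may be assigned to either gene.

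In the vehicle libraries labelled knockout, Casz1 had 117, 120, 125 and 176 normalized counts, a mean of 134.5 ± 27.9 (SD, n = 4). Their table was normalized apart from the wild-type one, so no test was made between them. Within its own table Casz1 reached 11 ± 2.28 per kb (SD, n = 4), percentile 22.5 of 13781 protein-coding genes with reads, against percentile 24.6 in wild-type vehicle, and it again stood at place 38 among the 39 factors. In counts per M of the table total, Casz1 had 27.25 ± 4.51 in wild-type vehicle and 7.64 ± 1.497 in libraries labelled knockout (SD, n = 4). The log2 difference of -1.77 stands beside a median of -1.12 over 1000 genes of like level, of which 5.4% were lower. Among the factors, the difference between the tables varied with the level per kb. Hey2, close to Casz1, had 11.21 per kb in wild-type vehicle and 13.83 in libraries labelled knockout. Tal1 had 104.5 and 211.8, and Epas1 557.5 and 6931. Whether the genes of like level were also like Casz1 per kb was not tested, so nothing is read from the 5.4%. The tables differ in normalization and genotype at once, and these cannot be told apart.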

How the data were processed

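Poly(A) RNA of 20 wild-type libraries and 4 labelled knockout was analysed. The authors deposited 1 table for each set, holding a signal per gene: normalized counts in whole numbers, called a normalized count matrix per the labels. Per the submitters' processing notes, the tools were STAR 2.7.3a, featureCounts 1.6.5 (Subread), Trimmomatic 0.38, FastQC and DESeq2 1.26.0, on mm10, in no given role or order. Their strand setting is not stated there. Because the deposited signal is already normalized, in a way that is not given, no count model was used. Reads behind the values are unknown, and no counting intervals are given. Of the knockout genes, 18029 stood on 2 identical rows, and 1 was kept.

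Log2(value + 1) of 12249 genes with a mean of at least 10 was fitted over the 20 wild-type libraries in limma 3.58.1 (R 4.3.3), with 1 mean per group and a mean-dependent prior variance. Benjamini-Hochberg adjustment ran over all genes, with calls under 0.05. The log2(value + 1) scale understates the change of low genes. Groups and numbers came from the labels. The labels do not say what a number shares. Same-numbered libraries deviated together in all 16 pairs of the tested comparisons (r = 0.38 to 0.78), so there the numbers largely pair the samples by correlation. In 14 of these 16 the highest r was with the library of the same number. Vehicle replicate 2 was instead closest to apical agonist replicate 1, and vehicle replicate 3 to apical S1P replicate 4. With basal S1P, 12 of 16 pairs deviated together (lowest r = -0.34), so those were not treated as paired. Alternatives covered pseudocount, filter, scaling, libraries fitted, replicate block, library weights and left-out libraries.

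Casz1, the gene lists, motifs and markers were chosen with earlier results of these data known. Named genes are Casz1, Egfl7, Rhoa and the S1P receptors, list members called or else the 3 with the smallest p between basal S1P and vehicle, the genes likest to Casz1, its neighbours within 300 kb, and the 2 highest markers of a list. The Cbx7 values per library and the neighbours singled out were chosen after their values were seen, as was the likeness over 13 libraries. Sequences are from RefSeq, and the factors compared per kb are from the same endothelial list.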

Additional observations from a re-analysis of the deposited data

Results flagged for a closer look

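In the group labelled knockout, the Casz1 value of replicate 4, 176 normalized counts, stood apart from the other 3 at 117, 120 and 125. Its gap to the nearest was 0.864 of the group's range, above Dixon's 95% critical value for 4 libraries. Such a gap arises by chance in about 1 in 20 groups, and 6 groups were examined. Without that library the group's mean was 121 instead of 134.5.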

How the results depend on the processing

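The log2 difference of Casz1 between basal S1P and vehicle ran from -1.36 to -1.04 over 19 alternatives, that against apical S1P from -1.04 to -0.73, that against basal agonist from -1.16 to -0.81 and that against the 3 other treatments from -1.15 to -0.84. Basal agonist against vehicle ran from -0.33 to -0.11 and apical S1P against vehicle from -0.43 to -0.17, and neither passed in any alternative. Apical agonist against vehicle was 0.0095 without apical agonist replicate 2, and also without all 4 libraries set apart by Xist, and ran from -0.22 to 0.0095 when single libraries were left out. Basal against apical agonist ran from -0.22 to 0.0231 in the same way, the latter without apical agonist replicate 4. The difference by replicate number passed in all 25 alternatives (adjusted p from 0.00224 to 0.0396). The mean of Casz1 in libraries labelled knockout ran from 121 to 140 as single libraries were left out.

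With the replicate number as a block the Casz1 differences were the same, and the SE fell to 0.17. Adjusted p-values for the tested ones were 0.968, 0.9998, 0.815 and 0.9995, and no call of Casz1 changed. The block raised the number of genes called to 47 for basal S1P against vehicle (3 without it), 83 against apical S1P (3), 18 against basal agonist (3) and 137 against the 3 other treatments (6), and of list members called to 3 (Atoh8 at an adjusted p of 0.000113, Cbx7 at 0.0225 and Jup at 0.0225). With only the compared groups fitted these counts were 0 (508 genes at an unadjusted p under 0.05 by limma), 1, 0 (351) and 3, and 0 list members were called. With library weights 13 genes were called against vehicle, 27 against the 3 other treatments and 2 list members (Atoh8 and Cbx7). Without the 4 libraries set apart by Xist, 0 genes were called between basal and apical S1P (816 at an unadjusted p under 0.05). Leaving out single libraries gave 1 to 3 there (1 without apical S1P replicate 2 or 3 or basal S1P replicate 1 or 3) and 3 to 9 against the 3 other treatments (3 without basal S1P replicate 1). The cause was not tested. The median r of the 8 genes likest to Casz1 was 0.59 over 20 libraries, 0.76 on residuals and 0.84 over 13 libraries, where the choice was made at 0.89.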
